A study of Xenopus laevis with 24 samples.

Results

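The comparison set embryos in which retinoic acid receptors (RARs) were switched on against embryos in which they were held off. It used 15 of the 24 RNA sequencing libraries of the series, 8 from *Xenopus laevis* embryos exposed to TTNPB and 7 from embryos exposed to AGN193109. TTNPB is a synthetic agonist selective for RARs, and AGN193109 is an RAR-selective inverse agonist. Embryos of 2 clutches, D and E, were kept in groups of 25 in a dish from stage 6 to 7 with 1 µM of either compound, or with the 0.1% ethanol vehicle, and were collected at stage 10.5, an early gastrula. Each library came from a pool of 5 whole embryos. Each exposure had 4 libraries per clutch, and AGN193109 replicate 4E was left out because it stood apart from the other libraries. The clutch letter was a term in the fit, and no vehicle library entered it. The 8 vehicle libraries are given below only as levels.

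Retinoic acid is a small lipid signal made from vitamin A. It binds RARs, which sit on DNA as partners of retinoid X receptors (RXRs), and turns a bound repressor into an activator. An agonist fills the same pocket and activates the receptor, whereas an inverse agonist strengthens its hold on co-repressors and lowers transcription below the level without ligand. In the vertebrate embryo retinoic acid is known for setting the position of the hindbrain and trunk along the head-to-tail axis, through *hox* genes among others, and for keeping head genes out of posterior tissue. The enzyme Cyp26a1 destroys retinoic acid and is itself a classic target of the receptor.

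Levels were given as FPKM, fragment numbers corrected for the length of the transcript and the size of the library, for 31306 GenBank transcript records. Averaged over the 15 libraries, 19714 of them reached 1 FPKM and were tested. Such values carry no read counts, and the depth behind them is unknown. Over the tested records the median level was 4.64 to 5.69 FPKM in the 15 libraries and 2.74 FPKM in AGN193109 replicate 4E, whose 10 highest records held 79.2% of its FPKM total against 44.1% to 62.2% in the 15. Markers of mesoderm, organizer, endoderm, neural ectoderm and epidermal ectoderm were detected in both groups, in which organizer markers summed to 50.3 to 92.1 FPKM with TTNPB and 67.03 to 95.5 FPKM with AGN193109. Of 18 markers of cells that a gastrula should lack, 12 were found, and they summed to 44.8 to 82.2 FPKM with TTNPB and 35.9 to 97.7 FPKM with AGN193109, mostly from the egg coat genes *zp3* and *zp4*. Of 4 listed globins only *hba1* was found, and it was at 0 in all 15 libraries. The muscle gene *ckm* was at or near 0, whereas a record of the muscle gene *tnnt3* was at 0.202 to 2.12 FPKM. The lens gene *crybb1* was at 0 to 2.595 FPKM, and the neuron gene *elavl3* at 4.26 to 18.3 FPKM. The libraries also fell into a pair of sets whose lowest FPKM values shared steps, 6 in the first and 9 in the second, a division that no label names. The first set held 5 libraries of clutch D and 1 of clutch E, and both exposures were in both sets.

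Many more records were higher with TTNPB than were lower. Of the 19714 records, 254 differed between TTNPB and AGN193109 (1.29%), 191 higher with TTNPB (0.969%) and 63 lower (0.32%), by limma with Benjamini-Hochberg adjustment at 0.05. The rises were also larger than the falls. Their median was 0.97 on the log2(FPKM + 1) scale, against -0.52 for the falls, and 87 rises but 6 falls reached 2-fold. The median difference of all tested records was -0.05. All 254 kept their direction in clutch D, in clutch E and in each library set, although fewer passed the test within them: 62 in clutch D alone, 136 in clutch E alone, 29 in the first set and 150 in the second. The first set was fitted without the clutch term and the second with it. The 254 were called from these same libraries, so an equal direction in each part was largely given by that choice. Differences are TTNPB minus AGN193109 in log2(FPKM + 1), where the change of a record with few FPKM appears too small, and each ± is the moderated standard error. The p-values measure the spread between aliquots, which may come from the same dish, while the independent sibships are the 2 clutches. With the clutch means as replicates, 2 records passed. In whole embryos a different number of cells of a type and a different amount of RNA per cell cannot be told apart.

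**Figure D1:**
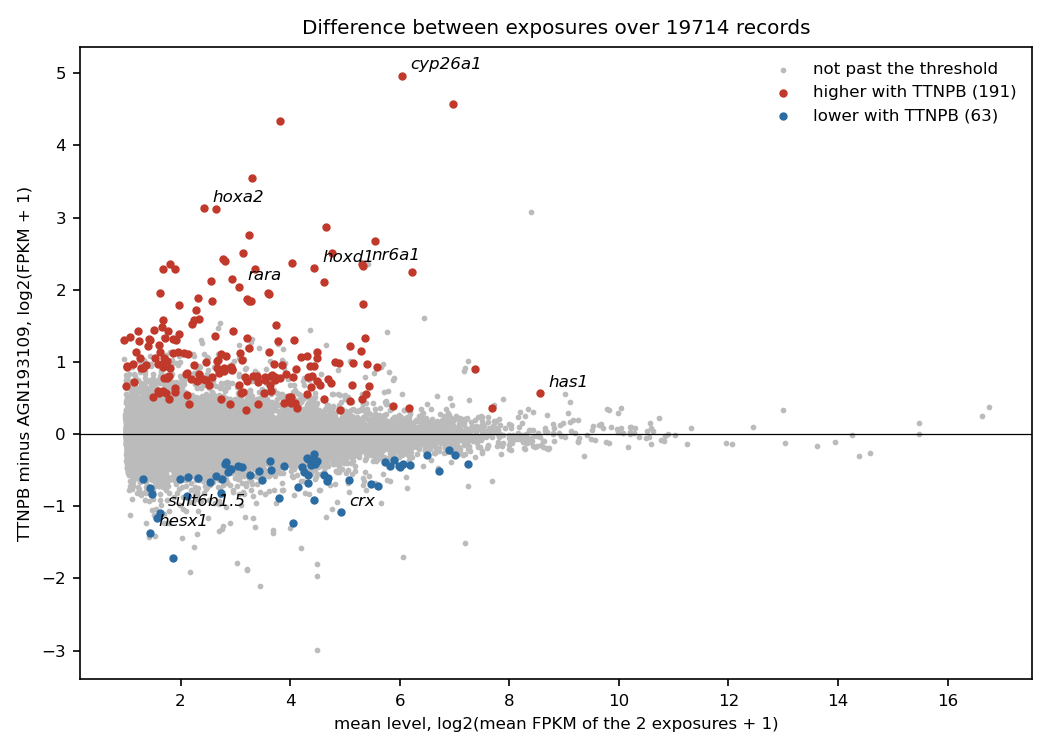
Difference between TTNPB and AGN193109 (vertical axis, log2(FPKM + 1)) against the mean level (horizontal axis, log2(mean FPKM + 1)) for 19714 records. The 191 records that were higher are in red and the 63 that were lower in blue; the red points reach 4.96 and the blue points -1.72.

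The libraries of one exposure stood wholly above those of the other in 146 records, 119 with TTNPB above (0.604%) and 27 with TTNPB below (0.137%). Among the records that passed the test, 115 of the 191 rises and 19 of the 63 falls had groups that did not overlap. The vehicle level lay closer to AGN193109 than to TTNPB in 183 of the 191 rises. It lay between the exposures in 141 of the rises and below the AGN193109 level in 50. It lay closer to AGN193109 in 37 of the 63 falls and closer to TTNPB in the other 26, and it was between the exposures in 58 of the falls. With AGN193109 replicate 4E included, 172 records passed, 156 higher and 16 lower, so that 90.7% of the calls were rises against 75.2% without it. The share of rises was 66.1% with a minimum mean of 5 FPKM, 80.1% with quantile normalization and 84% with upper-quartile scaling. Of the 191 rises, 35 had an AGN193109 mean under 1 FPKM, and of the 63 falls, 4 had a TTNPB mean under 1 FPKM. Such records were tested only because of their level in the other exposure.

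The largest rise belonged to the retinoid pathway itself. *cyp26a1*, whose product breaks down retinoic acid, led all 19714 records, and *rara*, which encodes the receptor RAR alpha, rose as well. Each gene list holds only records that carry a symbol, 1877 of the 19714 tested, so records of a listed gene may be missing from it. Of the 191 rises 77 carried a symbol, and of the 63 falls 24 did. Of 13 records on the list of retinoid metabolism, transport and receptors, 7 were tested, 3 rose and none fell (median difference 0.15, against -0.05 over all tested records). The 3 that rose were the pair of *cyp26a1* records and *rara*. The share called higher over all tested records was 0.969%. Where several records belong to 1 gene, or to its L and S copies in this allotetraploid frog, they may share reads, which was not examined, and how the level is split between them is uncertain.

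The *cyp26a1* record described as retinoic acid converting enzyme was between 205 and 278 FPKM (median 238) in the 8 TTNPB libraries and between 6.52 and 12.9 FPKM (median 8.95) in the 7 AGN193109 libraries. Its difference was 4.58 ± 0.11 (SE, adjusted p = 2.95e-13), and the ratio of the mean levels was 25.9. The groups lay far apart. The vehicle libraries, at 18.3 to 34.7 FPKM (median 25.4), lay in the gap, above every AGN193109 library and nearer to them than to TTNPB. The second *cyp26a1* record was between 112 and 159.8 FPKM (median 125) with TTNPB and between 1.51 and 4.601 FPKM (median 4.07) with AGN193109. It differed by 4.96 ± 0.15 (SE, adjusted p = 3.91e-12), a ratio of mean levels of 38.0, again with no overlap. Its vehicle libraries, at 11.4 to 22 FPKM, also lay between the exposures. The gap was present in both clutches, at 4.52 in clutch D and 5.48 in clutch E for the second record.

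*rara* was between 10.5 and 15.02 FPKM (median 12.1) with TTNPB and between 0.987 and 4.47 FPKM (median 2.93) with AGN193109, against a vehicle median of 3.69 FPKM. The difference was 2.04 ± 0.18 (SE, adjusted p = 4.5e-06), and every TTNPB library was above every AGN193109 library. It was 1.48 in clutch D and 2.70 in clutch E, and the test of that difference between clutches gave an adjusted p of 0.0704 in limma. The partner receptor gene *rxrb* was between 10.5 and 15.1 FPKM (median 12.8) with TTNPB and between 10.7 and 13.96 FPKM (median 12.1) with AGN193109, and these ranges overlapped. Its difference of 0.08 ± 0.09 (SE, adjusted p = 0.803) had a 95% interval of -0.11 to 0.27. *rdh10*, which encodes an enzyme of the first step of retinoic acid synthesis, was between 6.83 and 11.2 FPKM (median 7.88) with TTNPB and between 9.27 and 13.8 FPKM (median 10.7) with AGN193109, a difference of -0.37 ± 0.12 (SE, adjusted p = 0.202) with a 95% interval of -0.62 to -0.12. The records of *rarb* and *cyp26b1* had means under 1 FPKM and were not tested. *rarg*, *rxra*, *cyp26c1*, *dhrs3*, *aldh1a2* and *crabp2* were not analysed here.

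Most *hox* genes of the hindbrain and anterior trunk were at or near 0 FPKM with AGN193109 and at several FPKM or more with TTNPB. These genes encode the homeodomain factors that give each level of the axis its identity. Several were also near 0 with the vehicle. Its mean was 0.364 FPKM for *hoxb1*, 0.121 FPKM for *hoxa3*, and 0.541 and 0.530 FPKM for the *hoxa2* records. Of 10 records of *hox* paralogs 1 to 5, 8 were tested and all 8 rose, where 0.969% of all tested records were called higher. In 7 of those 8 the AGN193109 mean was under 1 FPKM, so they were tested only because of their level with TTNPB, and the count describes them without supporting more. *hoxd1* was the 1 record over 1 FPKM in both groups.

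*hoxd1*, of the most anterior paralog group, was already present without the agonist: it was between 5.195 and 8.79 FPKM (median 5.92) with AGN193109 and between 28.1 and 41.7 FPKM (median 34.4) with TTNPB. Its difference of 2.30 ± 0.10 (SE, adjusted p = 1.25e-09) was nearly the same in both clutches, at 2.29 in clutch D and 2.31 in clutch E, and the groups did not overlap. *hoxb1*, which marks a single hindbrain segment later in development, was between 2.903 and 7.28 FPKM (median 5.47) with TTNPB and between 0 and 0.7702 FPKM (median 0.217) with AGN193109, a difference of 2.29 ± 0.18 (SE, adjusted p = 9.08e-07). The lowest TTNPB library was thus well above the highest AGN193109 library.

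The next paralogs along the clusters also rose. *hoxa2* had 2 records, of which the first was between 5.91 and 11.8 FPKM (median 8.84) with TTNPB and between near 0 and 0.241 FPKM (median 0.0782) with AGN193109, a difference of 3.13 ± 0.13 (SE, adjusted p = 6.7e-10). The second differed by 1.95 ± 0.18 (SE, adjusted p = 5e-06). *hoxa3* was between 2.87 and 5.09 FPKM (median 4.54) with TTNPB and between near 0 and 0.147 FPKM (median 0.05803) with AGN193109, a difference of 2.29 ± 0.12 (SE, adjusted p = 5.85e-09). In all 3 records the TTNPB libraries were above every AGN193109 library. Another record, *hoxc5*, differed by 1.14 ± 0.17 (SE, adjusted p = 0.00122).

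Fewer of the more posterior genes could be tested. Of 12 records of *hox* paralogs 6 to 13 with *cdx* genes, 3 passed the filter on low levels and all 3 rose, 2 of them with an AGN193109 mean under 1 FPKM. Over all tested records 0.969% were called higher. *cdx4*, a caudal-type homeobox gene that acts upstream of posterior *hox* genes, was between 29.98 and 60.3 FPKM (median 49.4) with TTNPB and between 15.7 and 23.6 FPKM (median 18.9) with AGN193109. Its difference was 1.22 ± 0.14 (SE, adjusted p = 6.83e-05), without overlap. *hoxb6* was between 1.64 and 3.28 FPKM (median 2.899) with TTNPB and between 0.152 and 1.45 FPKM (median 0.578) with AGN193109 and differed by 1.22 ± 0.16 (SE, adjusted p = 0.000376). *hoxc6* was between 1.17 and 3.17 FPKM (median 1.44) with TTNPB and between 0.147 and 0.591 FPKM (median 0.352) with AGN193109 and differed by 0.95 ± 0.15 (SE, adjusted p = 0.00152). Both *hox* genes stayed at low levels even where they were high, and neither pair of groups overlapped. The vehicle means were 0.506 FPKM for *hoxb6* and 0.449 FPKM for *hoxc6*, against AGN193109 means of 0.615 and 0.358 FPKM.

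**Figure D2:**
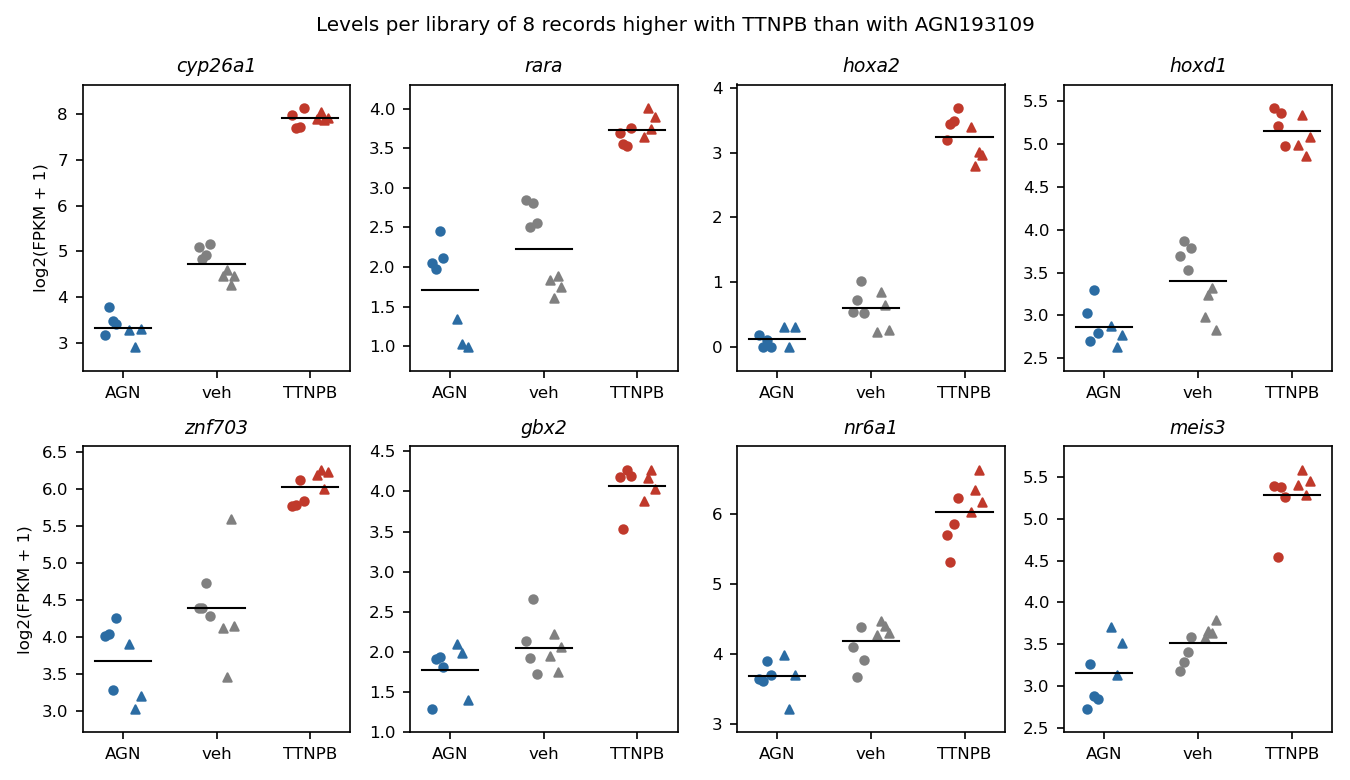
Levels in log2(FPKM + 1) of 8 records higher with TTNPB, for each library of AGN193109 (AGN, 7), vehicle (veh, 8) and TTNPB (8); circles are clutch D, triangles clutch E, and the line is the mean of the log2 values. In all 8 records every TTNPB library lies above every AGN193109 library, and axes do not all start at 0.

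Transcription factors that pattern the hindbrain made up the third large group of rises. Of 19 records on the list of hindbrain and posterior neural factors, 14 were tested, 7 rose and none fell (median difference 0.56, against -0.05 over all tested records). The share called higher over all tested records was 0.969%. Of the 7 rises, 6 were records of *gbx2*, *znf703*, *nr6a1* and *meis3*. The other 7 tested records, among them *irx1*, *irx2*, *irx3*, *mafb* and *pbx2*, did not pass, with differences between -0.18 and 0.38. A record described as NK6 transcription factor related carried no symbol and was not counted. It differed by 1.94 ± 0.14 (SE, adjusted p = 3.4e-07 in limma). Summed levels of the neuron markers *elavl3* and *stmn2* were 5.24 to 18.7 FPKM with TTNPB and 4.89 to 11.7 FPKM with AGN193109, and their part in these rises was not tested.

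*gbx2* marks the territory behind the midbrain-hindbrain boundary. One of its records was between 10.6 and 18.3 FPKM (median 17.02) with TTNPB and between 1.45 and 3.29 FPKM (median 2.75) with AGN193109, a difference of 2.29 ± 0.14 (SE, adjusted p = 7.5e-08). The other *gbx2* record differed by 2.40 ± 0.23 (SE, adjusted p = 7.75e-06). Both records separated the groups without overlap.

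*nr6a1*, an orphan nuclear receptor also known as GCNF, was between 38.5 and 97.5 FPKM (median 67.2) with TTNPB and between 8.32 and 14.8 FPKM (median 11.96) with AGN193109. Its difference was 2.33 ± 0.16 (SE, adjusted p = 1.57e-07). It was the 1 record of 9 tested to rise among nuclear receptors and co-regulators outside the RAR and RXR families, a list with no fall and a median difference of -0.16. Over all tested records 0.969% were called higher. *znf703*, which encodes a zinc finger protein, was between 53.8 and 75.6 FPKM (median 65.5) with TTNPB and between 7.19 and 18.1 FPKM (median 14.02) with AGN193109, a difference of 2.35 ± 0.18 (SE, adjusted p = 5.49e-07). A record described as nocA-like zinc finger 1 was between 90.3 and 163 FPKM (median 126) with TTNPB and between 16.6 and 28.1 FPKM (median 25.4) with AGN193109 and differed by 2.25 ± 0.12 (SE, adjusted p = 5.85e-09). It is on no list here, and it may be a further record of *znf703*, which was not examined. The groups did not overlap in any of the 3 records.

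*meis3*, which encodes a partner of Hox proteins needed for hindbrain fate in *Xenopus*, gave 2 records that differed in size. The first was between 22.4 and 47.1 FPKM (median 40.9) with TTNPB and between 5.63 and 12.1 FPKM (median 7.797) with AGN193109, a difference of 2.11 ± 0.14 (SE, adjusted p = 8.96e-08). The second, meis3-B, was between 21.3 and 35.7 FPKM (median 26.4) with TTNPB and between 11.4 and 22.1 FPKM (median 14.8) with AGN193109, a difference of 0.74 ± 0.11 (SE, adjusted p = 0.00148). The first record separated the groups and the second did not. With AGN193109 replicate 4E included the second record no longer passed (adjusted p = 0.0709 in limma).

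Some genes of the head fell. Of 24 records on the list of anterior neural and head genes, 11 were tested, none rose and 4 fell (median difference -0.37). The share called lower over all tested records was 0.32%. *hesx1* and a *six3* record had a TTNPB mean under 1 FPKM and were tested only because of their level with AGN193109, and the 9 records over 1 FPKM in both groups had a median difference of -0.29. The 4 that fell were *hesx1*, the pair of *crx* records and *otx1*, and in each of them every TTNPB library was below every AGN193109 library. *otx2* was not analysed here.

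*hesx1* encodes a homeodomain repressor of the anterior neural plate. It was between 0 and 1.25 FPKM (median 0.399) with TTNPB and between 1.36 and 4.59 FPKM (median 3.01) with AGN193109, and its difference of -1.36 ± 0.23 (SE, adjusted p = 0.00314) was the largest fall of a record with a gene name. The vehicle median of this record, hesx1-b, was 1.89 FPKM, between the exposures. Another *hesx1* record averaged under 1 FPKM and was not tested. *crx*, called otx5 in *Xenopus*, is an Otx-family gene of the anterior ectoderm. One record was between 16.5 and 20.6 FPKM (median 18.4) with TTNPB and between 35.9 and 49.8 FPKM (median 38.3) with AGN193109, a difference of -1.08 ± 0.09 (SE, adjusted p = 1.18e-06), and the other differed by -0.72 ± 0.10 (SE, adjusted p = 0.000376). *otx1* moved less: it was between 16.3 and 19.3 FPKM (median 18.1) with TTNPB and between 22.5 and 24.7 FPKM (median 23.8) with AGN193109, a difference of -0.38 ± 0.06 (SE, adjusted p = 0.0012). Its groups were narrow enough that even this small gap left them apart. With AGN193109 replicate 4E included, *hesx1* and both *crx* records still passed, and *otx1* did not (adjusted p = 0.132 in limma).

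The 7 head records that did not pass ran both ways. A *six6* record, of an eye field homeobox gene, had means of 23.9 FPKM with TTNPB and 12.3 FPKM with AGN193109 and a difference of 0.78 ± 0.32 (SE, adjusted p = 0.365). *six3* records and *tcf7l1* records lay between -0.38 and 0.40. *ag1*, a secreted protein gene of the cement gland, the sticky organ at the front of the tadpole head, fell. It was between 1.08 and 3.81 FPKM (median 1.99) with TTNPB and between 2.63 and 6.42 FPKM (median 4.28) with AGN193109, a difference of -0.86 ± 0.16 (SE, adjusted p = 0.00692), and the groups overlapped. It was the only one of 5 tested cement and hatching gland records to pass (median difference -0.24), where 1.29% of all tested records were called.

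**Figure D3:**
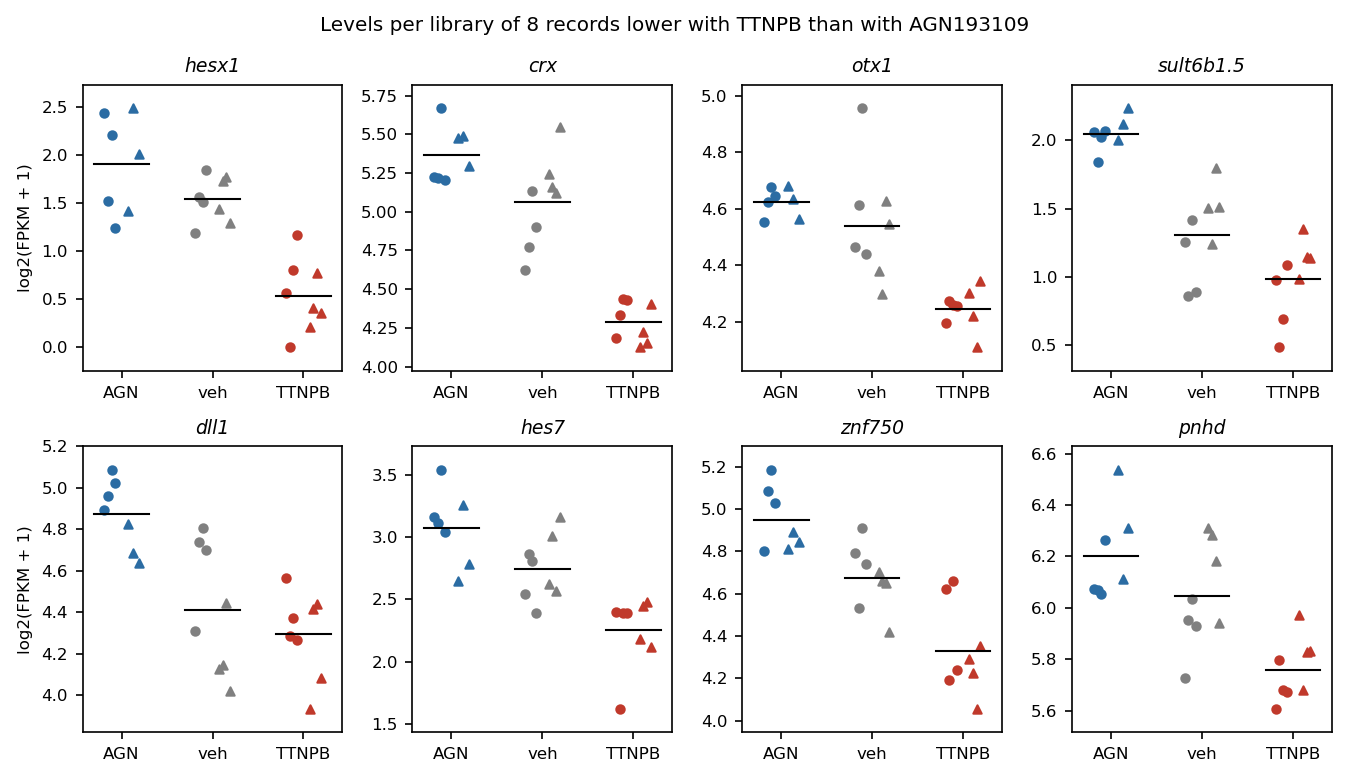
Levels in log2(FPKM + 1) of 8 records lower with TTNPB, for each library of AGN193109 (AGN, 7), vehicle (veh, 8) and TTNPB (8); circles are clutch D, triangles clutch E, and the line is the mean of the log2 values. The axes do not start at 0. In all 8 records every TTNPB library lies below every AGN193109 library.

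On the list for the organizer, the dorsal signalling centre of the gastrula, a few records passed, not all in the same direction. Of 17 tested records of organizer and axial mesoderm, 1 rose and 2 fell (median difference -0.24). The share called over all tested records was 1.29%. *nodal3*, a TGF-beta family ligand of the organizer, was between 0.0105 and 3.25 FPKM (median 0.677) with TTNPB and between 1.42 and 5.29 FPKM (median 2.096) with AGN193109 in the record that fell, a difference of -0.83 ± 0.19 (SE, adjusted p = 0.0459). *admp*, a BMP-like ligand made in the organizer, was between 11.2 and 18.5 FPKM (median 14.9) with TTNPB and between 16.8 and 27.2 FPKM (median 23.5) with AGN193109, a difference of -0.57 ± 0.12 (SE, adjusted p = 0.0218). Both pairs of groups overlapped. The call of *nodal3* was lost without any 1 of 13 of the 15 libraries, with an adjusted p of up to 0.123 without AGN193109 replicate 3E, and that of *admp* without any 1 of 4, with up to 0.0672 without the same library. Neither passed with AGN193109 replicate 4E included (adjusted p = 0.0725 and 0.223 in limma).

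*lhx1*, which encodes a LIM homeodomain factor of organizer and kidney, was the organizer record that rose. It was between 17.1 and 31.6 FPKM (median 22.9) with TTNPB and between 8.59 and 23.3 FPKM (median 13.4) with AGN193109, and these overlapping ranges gave a difference of 0.79 ± 0.15 (SE, adjusted p = 0.0128). The classical organizer genes did not pass. *chrd*, a secreted BMP inhibitor, was between 42.5 and 80.6 FPKM (median 58.8) with TTNPB and between 58.9 and 80.8 FPKM (median 70.95) with AGN193109, a difference of -0.28 ± 0.09 (SE, adjusted p = 0.218) with a 95% interval of -0.47 to -0.08. *gsc*, a homeobox repressor, was between 1.76 and 8.94 FPKM (median 5.36) with TTNPB and between 5.76 and 13.2 FPKM (median 6.503) with AGN193109, a difference of -0.37 ± 0.24 (SE, adjusted p = 0.61) with a 95% interval of -0.87 to 0.13. The *gsc* interval is wide enough to include a fall as large as that of the second *crx* record.

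The mesoderm lists gave 5 calls. Of 30 tested pan-mesodermal and ventrolateral records 1 rose and none fell (median difference -0.10), and of 19 presomitic and myogenic records 2 rose and 2 fell (median difference -0.07). The 2 presomitic rises were the *cyp26a1* records already given. Over all tested records 1.29% were called. *fgf20*, an FGF ligand, was the pan-mesodermal rise: it was between 1.41 and 2.08 FPKM (median 1.77) with TTNPB and between 0.441 and 0.959 FPKM (median 0.683) with AGN193109, without overlap, a difference of 0.72 ± 0.11 (SE, adjusted p = 0.00159). Its AGN193109 mean was under 1 FPKM, so it was tested only because of its level with TTNPB. *tbxt*, or Brachyury, the T-box factor of the whole early mesoderm, had 2 records, of which the more abundant was between 93.8 and 153 FPKM (median 122) with TTNPB and between 118 and 179.5 FPKM (median 156) with AGN193109. Its difference was -0.24 ± 0.06, with an adjusted p of 0.05 in limma as rounded, just short of the threshold, and the ranges overlapped. The other record, Xbra3, was between 11.5 and 16.4 FPKM (median 13.1) with TTNPB and between 11.1 and 18.1 FPKM (median 14.2) with AGN193109, a difference of -0.11 ± 0.10 (SE, adjusted p = 0.722) with a 95% interval of -0.32 to 0.09.

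Other regulators of mesoderm did not pass. *vegt*, a maternal and zygotic T-box factor, differed by -0.13 ± 0.11 (SE, adjusted p = 0.728), and its 95% interval was -0.37 to 0.11. *msgn1*, a bHLH factor of the presomitic mesoderm, differed by 0.01 ± 0.21 (SE, adjusted p = 0.994), and its interval was -0.43 to 0.45. *tbx6*, a T-box factor of the same tissue, differed by -0.08 ± 0.11 (SE, adjusted p = 0.836), with an interval of -0.31 to 0.15. *fgf8*, an FGF ligand, differed by -0.04 ± 0.09 (SE, adjusted p = 0.918), with an interval of -0.23 to 0.16. All 4 intervals contain 0, which bounds the difference without showing that the levels were equal. The pair of *myod1* records of the muscle determination factor differed by 0.35 ± 0.15 (SE, adjusted p = 0.397) and -0.05 ± 0.14 (SE, adjusted p = 0.936), and 1 of 3 *mespa* records, thylacine 2, had the highest difference of the presomitic records that did not pass, 0.69 ± 0.19 (SE, adjusted p = 0.116).

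The 2 falls on the presomitic list were both also on the list of Notch ligands and Hes-related repressors. *dll1*, a ligand of Notch receptors, was between 14.3 and 22.7 FPKM (median 19.1) with TTNPB and between 23.9 and 32.99 FPKM (median 28.7) with AGN193109, a difference of -0.56 ± 0.09 (SE, adjusted p = 0.00144). *hes7*, a Hes-family repressor recorded here as XHR1, was between 2.08 and 4.57 FPKM (median 4.24) with TTNPB and between 5.26 and 10.6 FPKM (median 7.63) with AGN193109, a difference of -0.81 ± 0.15 (SE, adjusted p = 0.00819). Neither pair of groups overlapped. *jag1*, another Notch ligand, moved the opposite way: it was between 6.41 and 10.7 FPKM (median 7.76) with TTNPB and between 2.6 and 4.51 FPKM (median 3.81) with AGN193109, a difference of 0.91 ± 0.08 (SE, adjusted p = 5.32e-06), also without overlap. On the list of Notch ligands and Hes-related repressors these were the 3 of 13 tested records that passed (median difference -0.08). The share called over all tested records was 1.29%. With AGN193109 replicate 4E included *dll1* no longer passed (adjusted p = 0.545 in limma), while *hes7* and *jag1* did.

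Genes that dampen FGF and MAP kinase signalling were also split. *dusp6*, a phosphatase that switches off ERK, rose in both of its records, one of which was between 5.36 and 10.3 FPKM (median 7.57) with TTNPB and between 1.48 and 3.81 FPKM (median 2.59) with AGN193109. Their differences were 1.35 ± 0.16 (SE, adjusted p = 9.33e-05) and 1.12 ± 0.10 (SE, adjusted p = 5.51e-06), neither with overlap. *dusp1*, a related phosphatase, fell: one record was between 8.15 and 16.3 FPKM (median 12.9) with TTNPB and between 12.1 and 30.9 FPKM (median 22.3) with AGN193109, overlapping ranges with a difference of -0.73 ± 0.13 (SE, adjusted p = 0.00808). Its second record did not pass, at -0.54 ± 0.13 (SE, adjusted p = 0.0526). Of 11 tested records on the FGF feedback list these were the 3 that passed, 2 higher and 1 lower (median difference 0.10), and the *spry1*, *spry2* and *etv1* records did not. The share called over all tested records was 1.29%.

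In the ectoderm several epidermal genes rose. Of 27 tested records of non-neural ectoderm 6 rose and none fell (median difference 0.12), where 0.969% of all tested records were called higher. Of 14 tested records on the neural plate list none rose and 1, *zic1*, fell (median difference -0.16). A record described as nrp-1B was not counted on that list, which names *nrp1*, and whether it belongs there was not examined. It was higher with TTNPB by 0.98 ± 0.13 (SE, adjusted p = 0.000397 in limma). Summed epidermal markers (*tfap2a*, *foxi1*, *dlx3* and *gata2*) were 93.2 to 140.5 FPKM with TTNPB and 65.1 to 124.9 FPKM with AGN193109, overlapping ranges whose part in the rises was not tested. *foxi1* and a *dlx3* record are on that marker list as well as among the rises.

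The keratin record described as B2 keratin, a filament protein, was between 45.4 and 109 FPKM (median 82.4) with TTNPB and between 5.62 and 20.5 FPKM (median 10.9) with AGN193109. Its difference was 2.67 ± 0.22 (SE, adjusted p = 1.76e-06), and the groups did not overlap. An epidermal type I cytokeratin of the gastrula was between 1.43 and 20.01 FPKM (median 9.94) with TTNPB and between 0.585 and 5.89 FPKM (median 1.99) with AGN193109, overlapping ranges with a difference of 1.43 ± 0.25 (SE, adjusted p = 0.00565). One record of *dlx3*, a homeobox gene of non-neural ectoderm, was between 4.72 and 10.6 FPKM (median 8.21) with TTNPB and between 1.61 and 5.29 FPKM (median 3.21) with AGN193109 and differed by 1.11 ± 0.18 (SE, adjusted p = 0.00294). These ranges overlapped. Another *dlx3* record, at 0.627 to 5.94 FPKM over the 15 libraries (median 2.98), did not pass. The remaining 3 rises on the list, of which *itln1* had an AGN193109 mean under 1 FPKM and was tested only because of its level with TTNPB, were *itln1* at 1.05 ± 0.24 (SE, adjusted p = 0.0431), *foxi4.2* at 0.95 ± 0.12 (SE, adjusted p = 0.000321) and *foxi1* at 0.68 ± 0.14 (SE, adjusted p = 0.025). Abundant epithelial keratins did not pass: *krt8* had a mean of 78.8 FPKM with TTNPB and 64.4 FPKM with AGN193109, and *krt18* 529 and 483 FPKM.

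*zic1*, a zinc finger factor of the neural plate, was between 38.4 and 58.01 FPKM (median 46.4) with TTNPB and between 54.1 and 76.9 FPKM (median 64.4) with AGN193109, a difference of -0.44 ± 0.10 (SE, adjusted p = 0.04). The groups overlapped, and the call was lost without any 1 of 11 of the 15 libraries, with an adjusted p of up to 0.0971 without AGN193109 replicate 2E, and with AGN193109 replicate 4E included (adjusted p = 0.953 in limma). *sox3*, a pan-neural SoxB factor, did not pass: it was between 171 and 239.7 FPKM (median 221) with TTNPB and between 136 and 222 FPKM (median 183) with AGN193109, a difference of 0.23 ± 0.07 (SE, adjusted p = 0.206) with a 95% interval of 0.07 to 0.39. In the endoderm 1 of 18 tested records rose and none fell (median difference -0.09), where 0.969% of all tested records were called higher. *sox17a*, an endoderm determination factor, differed by -0.16 ± 0.12 (SE, adjusted p = 0.651) with an interval of -0.41 to 0.08. *tfap2a*, an ectodermal AP-2 factor, differed by 0.04 ± 0.15 (SE, adjusted p = 0.953) and -0.06 ± 0.12 (SE, adjusted p = 0.909) in its 2 records.

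**Figure D4:**
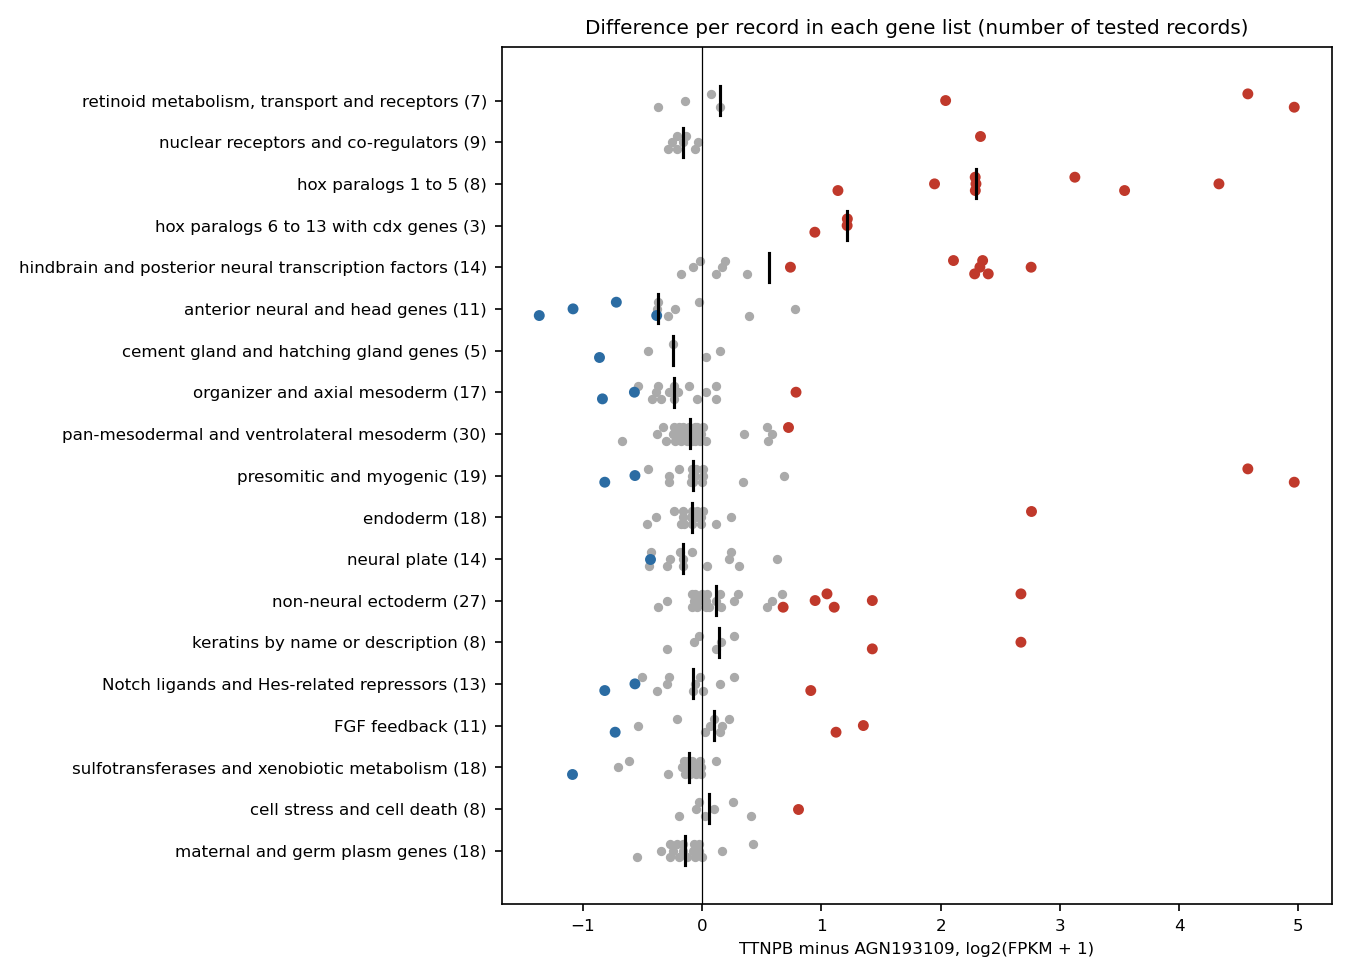
Difference between TTNPB and AGN193109 in log2(FPKM + 1) (horizontal axis) for every tested record of the 19 gene lists, with the number of tested records in brackets. Red points rose, blue points fell, grey points did not pass the test, and the black bar is the list's median, which runs from -0.37 for head genes to 2.29 for *hox* paralogs 1 to 5.

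The remaining falls with a gene name came from varied functions. *sult6b1.5*, a member of the sulfotransferase family, was between 0.399 and 1.54 FPKM (median 1.05) with TTNPB and between 2.59 and 3.71 FPKM (median 3.17) with AGN193109. Its difference was -1.09 ± 0.12 (SE, adjusted p = 4e-05), without overlap, and its vehicle median of 1.53 FPKM was nearer the TTNPB level. It was the only one of 18 tested records of sulfotransferases and xenobiotic metabolism to pass (median difference -0.11), where 1.29% of all tested records were called. *znf750*, a zinc finger factor of epidermal differentiation in mammals, was between 15.6 and 24.2 FPKM (median 18.2) with TTNPB and between 26.9 and 35.4 FPKM (median 28.7) with AGN193109, without overlap, a difference of -0.61 ± 0.09 (SE, adjusted p = 0.000807). *htra1*, a secreted serine protease, was between 2.24 and 4.89 FPKM (median 3.22) with TTNPB and between 4.75 and 7.17 FPKM (median 6.04) with AGN193109 and differed by -0.66 ± 0.12 (SE, adjusted p = 0.00605), with ranges that overlapped slightly.

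A pair of genes for secreted proteins fell by smaller amounts. *pnhd*, or pinhead, was between 47.8 and 61.8 FPKM (median 52.5) with TTNPB and between 65.5 and 91.8 FPKM (median 68.1) with AGN193109, without overlap, a difference of -0.46 ± 0.07 (SE, adjusted p = 0.00159). *tsku*, or tsukushi, was between 12.5 and 18.4 FPKM (median 14.6) with TTNPB and between 17.5 and 24.2 FPKM (median 19.7) with AGN193109 and differed by -0.46 ± 0.08 (SE, adjusted p = 0.00382), with 1 TTNPB library inside the AGN193109 range. *glmp*, a lysosomal membrane protein gene, differed by -0.46 ± 0.11 (SE, adjusted p = 0.0435), and *prag1* by -0.48 ± 0.11 (SE, adjusted p = 0.043). Each of these last calls was lost without any 1 of 11 of the 15 libraries, with an adjusted p of up to 0.111 for *glmp* (without AGN193109 replicate 1E) and 0.106 for *prag1* (without AGN193109 replicate 3E). With AGN193109 replicate 4E included, 11 of the 18 named falls no longer passed, against 3 of the 29 named rises, and *pnhd*, *tsku*, *htra1*, *dusp1*, *glmp* and *prag1* were among those 11 with adjusted p between 0.0738 and 0.853.

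*gadd45g*, a growth arrest and DNA damage response gene, was the only one of 8 tested cell stress and cell death records to pass, with a median difference of 0.06 for the list. It was between 20.8 and 32.5 FPKM (median 25.1) with TTNPB and between 7.43 and 21.3 FPKM (median 17.1) with AGN193109, a difference of 0.80 ± 0.18 (SE, adjusted p = 0.041), and the ranges overlapped slightly. The call was lost without any 1 of 11 of the 15 libraries, with an adjusted p of up to 0.101 without AGN193109 replicate 1E, and with AGN193109 replicate 4E included (adjusted p = 0.0691 in limma). None of 18 tested maternal and germ plasm records passed in either direction (median difference -0.14). Over all tested records 1.29% were called, so 0 or 1 call in lists this short is no result about them.

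The response was then compared between the clutches, the only independent sibships. The difference between exposures itself differed between clutch E and clutch D in 6 records (0.0304%) by the interaction term in limma, with 1139 records at an unadjusted p under 0.05, and in all 6 the signed difference was higher in clutch E. In 3 of the 6 it was below 0 in clutch D and above 0 in clutch E. *c3*, the central protein of the complement system, was the clearest. With TTNPB it was 0.233 to 1.19 FPKM in the 4 libraries of clutch D and 12.3 to 17.7 FPKM in the 4 of clutch E, while with AGN193109 it did not exceed 0.763 FPKM in either. Its difference was 0.51 in clutch D and 3.49 in clutch E, and the interaction of 2.99 ± 0.33 (SE, adjusted p = 0.00419) was called without any 1 of the 15 libraries. Over both clutches it was 1.89 ± 0.41 (SE, adjusted p = 0.0295), a call lost without any 1 of 7 libraries of the 15, with an adjusted p of up to 0.0805 without AGN193109 replicate 1E. The AGN193109 mean of *c3* was 0.289 FPKM, so *c3* was tested only because of its level with TTNPB.

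The second record with a gene name was ornithine decarboxylase-2, of the enzyme family that starts polyamine synthesis. Its level was lower in clutch E than in clutch D with AGN193109 and with the vehicle. With TTNPB the median was also lower in clutch E (174 FPKM) than in clutch D (235 FPKM), and the clutch ranges overlapped only slightly. With AGN193109 the record was 171 to 213 FPKM in clutch D and 47.7 to 63.8 FPKM in clutch E, and with TTNPB 184 to 261 FPKM and 149 to 186 FPKM. With the vehicle it was 161.7 to 260 FPKM in clutch D and 53.6 to 95.04 FPKM in clutch E. The interaction was 1.38 ± 0.19 (SE, adjusted p = 0.0185), it was called in 10 of 15 fits that each left out 1 library, and with AGN193109 replicate 4E included it was not called (adjusted p = 0.27). Its difference over both clutches was 0.91 ± 0.20 (SE, adjusted p = 0.03), lost without any 1 of 7 libraries, with up to 0.0805 without AGN193109 replicate 1E, and the ranges overlapped.

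The other 4 records carry no gene name. Hypothetical protein MGC115642 was 9.49 to 53.5 FPKM with TTNPB and 18.5 to 30.6 FPKM with AGN193109 in clutch D, against 114.7 to 193 FPKM and 7.33 to 12.5 FPKM in clutch E. Putative transmembrane protein TA-2 was 6.18 to 22.6 FPKM with TTNPB and 14.6 to 19.6 FPKM with AGN193109 in clutch D, against 32.7 to 44.8 FPKM and 7.28 to 7.87 FPKM in clutch E. In both, the groups overlapped in clutch D and were far apart in clutch E. The difference went from -0.58 in clutch D to 3.74 in clutch E for MGC115642 and from -0.50 to 2.21 for TA-2. The cDNA clone was 0.441 to 0.885 FPKM with TTNPB and 1.72 to 2.58 FPKM with AGN193109 in clutch D, against 1.94 to 2.89 FPKM and 0.943 to 1.465 FPKM in clutch E. Its difference was -0.86 in clutch D and 0.68 in clutch E, opposite in sign and smaller in size in clutch E, without overlap in either. Hypothetical protein MGC81322 and the clone had interactions of 1.94 ± 0.31 and 1.54 ± 0.24, each with an adjusted p of 0.0496 in limma. The AGN193109 mean of MGC81322 was 0.776 FPKM, so that record was tested only because of its level with TTNPB.

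The clutches and the library sets partly coincide, since all 4 TTNPB libraries of clutch E are in the second set and 3 of the 4 of clutch D in the first. With the library set added as a term, 4 of the 6 interactions still passed, with adjusted p of 0.016 for *c3* and for MGC115642 and 0.046 for ornithine decarboxylase-2 and TA-2. With the set in place of the clutch none of the 6 passed. For the comparison over both clutches, adding the set gave 324 calls, and none of the 47 named calls was lost.

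**Figure D5:**
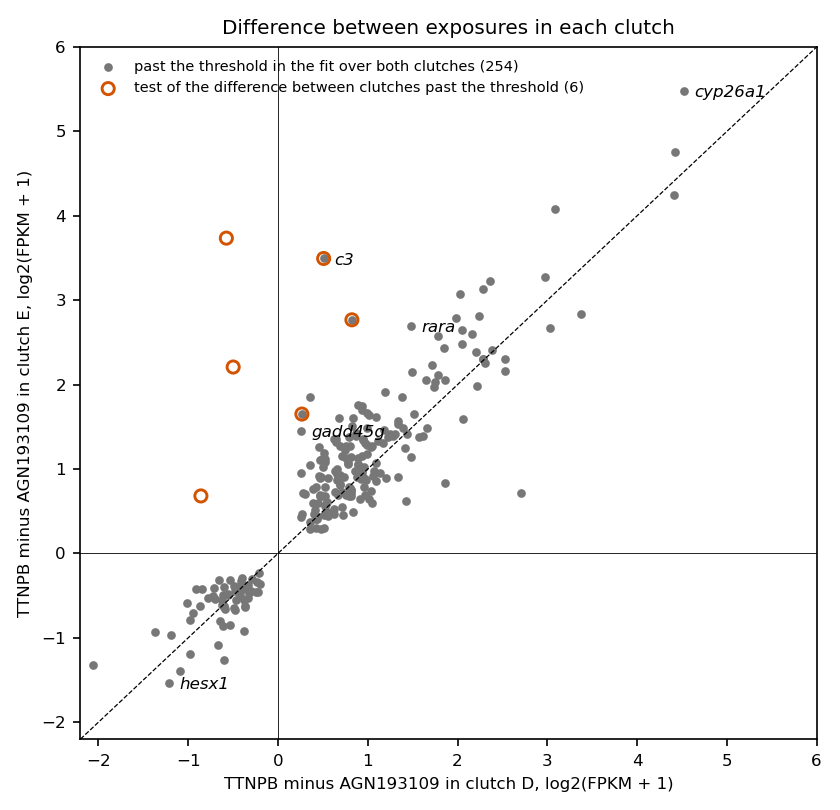
Difference between TTNPB and AGN193109 in log2(FPKM + 1) in clutch E (vertical axis) against clutch D (horizontal axis) for the 254 records called over both clutches (grey); orange circles mark the 6 records whose difference itself differed between clutches, and the dashed line marks equal differences. All 254 grey points lie in the quadrants of equal sign, which their call from these same libraries largely gave, and all 6 circles lie above the line.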

How the data were processed

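Per the labels' protocols, cDNA was made from the total RNA of each 5-embryo pool with NuGEN's Ovation amplification system, and ABI SOLiD fragment libraries were sequenced. TopHat, Bowtie and Cufflinks are named in the submitters' processing notes, without versions; for the reference sequence, "not given in the sources used here" applies. Deposited were FPKM, computed by the authors, for 31306 records in 24 libraries. The labels speak of 5 replicates per clutch, of which 4 per exposure and clutch were analysed here. FPKM keeps no counts, so a count test was not used.

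Exposure and clutch came from the labels. Values were transformed to log2(FPKM + 1), records averaging 1 FPKM or more across the 15 libraries were kept, and exposure and clutch were fitted in R 4.3.3 with limma 3.58.1 (empirical Bayes with a trend, two-sided, Benjamini-Hochberg over 19714 records, threshold 0.05). The interaction fit added exposure by clutch. Records described by a gene number (2547) took a symbol, where one was found (2218), from RefSeq's table of genes on assembly Xenopus_laevis_v10.1, and 338 were named from their description. Named were the 15 largest rises and falls with a gene name, up to 3 of each per list, up to 5 interactions, and a set named whatever their result; the few others were chosen after their values were seen. Some records that this rule names are not reported here. The comparison, members and lists were chosen with earlier results of these data known. The fits were tested on simulated data. A planned search of promoter windows was not run, since promoter sequence was not used here. Alternatives are in the closing section.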

Additional observations from a re-analysis of the deposited data

Results flagged for a closer look

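In 7 of 138 groups examined (1 exposure of 1 named record each), a single library lay far from the others, and chance alone marks about 1 in 20 groups. The *cyp26a1* record LOC496314 was 159.8 FPKM in TTNPB replicate 2E, and the next library had 128.7 FPKM. With AGN193109, *hoxb1* was 0.770 FPKM in replicate 1D (next 0.259) and *nodal3* was 5.29 FPKM in replicate 3E (next 2.64). TTNPB replicate 2D had the lowest *meis3* level, 22.4 FPKM (next 37.5), the lowest *hes7* level, 2.08 FPKM (next 3.35), and the highest *vegt* level, 153.6 FPKM (next 104.3). *tsku* was 18.4 FPKM in TTNPB replicate 1D (next 14.8).

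In 6 records the signed difference, TTNPB minus AGN193109, was higher in clutch E than in clutch D by limma's interaction term with Benjamini-Hochberg adjustment. In MGC115642, TA-2 and the cDNA clone it was below 0 in clutch D and above 0 in clutch E. The log2 interaction was 2.99 for *c3*, 1.38 for ornithine decarboxylase-2, 4.31 for hypothetical protein MGC115642, 2.71 for putative transmembrane protein TA-2, 1.54 for 1 cDNA clone and 1.94 for hypothetical protein MGC81322. Without each library in turn these were called in 15, 10, 9, 6, 2 and 1 of 15 fits.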

How the results depend on the processing

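The 254 calls between TTNPB and AGN193109 became 62 in clutch D alone, 136 in clutch E alone, 29 in library set 1 alone, 150 in library set 2 alone, 161 at an adjusted p of 0.01 and 2 with clutch means as replicates; 146 records had groups that did not overlap. Set 1, set 2 and each clutch hold fewer libraries by construction. The fit in set 1 had no clutch term, whereas that in set 2 had it. In set 1 all 3 TTNPB libraries are of clutch D and 1 of the 3 AGN193109 libraries is of clutch E. Exposure and clutch are therefore partly mixed there. The other settings stayed within 1.5 times 254. Including AGN193109 replicate 4E gave 172 calls, 90.7% of them rises. The 6 interaction calls became 3 with a mean of at least 5 FPKM, 14 with array weights, and 1 each with the library set in place of the clutch and at an adjusted p of 0.01; the cause was not tested. Leaving out each library in turn gave 200 calls (without AGN193109 replicate 3E) to 257 (without TTNPB replicate 2D), and for the interaction 1 (without AGN193109 replicate 4D) to 11 (without TTNPB replicate 4D). Of 47 named calls 29 were lost in clutch D alone, 19 in clutch E alone, 37 in library set 1 alone and 16 in library set 2 alone, each with the same direction. Of the 47, 39 held without each of the 15 libraries, and none changed sign in any setting. Some of the 69 named records that were not called did change sign, such as MGC115642, which ran from -0.58 to 3.74. The replicate block gave 262 and 6 calls and lost no named call. The numbers are not said to mark a shared dish or day. Same-numbered libraries deviated together over 0.1 in 1 of 7 pairs (-0.02 to 0.12), which cannot show that pairing was absent. Without the clutch term 11 named calls were lost, and with clutch means 46. With AGN193109 replicate 4E included, where the median of all records was 0.05, the median of the list pan-mesodermal and ventrolateral mesoderm became 0.06, the median of the list presomitic and myogenic 0.03, the median of the list endoderm 0.07, the median of the list neural plate 0.004 and the median of the list maternal and germ plasm genes 0.03. In clutch E alone the presomitic (0.14), endoderm (0.03) and Notch (0.07) medians were above 0. The promoter motif alternative was not run. The library set alternatives were chosen after seeing the data.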

Other observations

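Further records past the threshold, chosen after their values were seen, act in WNT or BMP signalling. The genes of 3 Frizzled receptors for WNT ligands were higher with TTNPB, *fzd10* by 1.31 ± 0.16 (SE, adjusted p = 0.000177), *fzd4* by 0.79 ± 0.10 (SE, adjusted p = 0.000343) and *fzd6* by 0.58 ± 0.13 (SE, adjusted p = 0.0338) in limma with Benjamini-Hochberg adjustment. *kremen2*, a receptor for Dickkopf proteins, had a mean of 6.67 FPKM with TTNPB and 1.39 FPKM with AGN193109 and differed by 1.60 ± 0.15 (SE, adjusted p = 8.43e-06). *dact1*, a cytoplasmic WNT modulator known as dapper, differed by 0.56 ± 0.07 (SE, adjusted p = 0.000129). *twsg1*, twisted gastrulation, which encodes a secreted BMP modulator, differed by 1.11 ± 0.18 (SE, adjusted p = 0.00264), and *kcp*, kielin, had a mean of 2.93 FPKM with TTNPB and 0.492 FPKM with AGN193109 (adjusted p = 1.43e-05 in limma). With that AGN193109 mean, *kcp* was tested only because of its level with TTNPB. No list of these pathways was counted, so how many of their other members passed was not examined, and the BMP inhibitor gene *chrd* and *tsku*, given above, did not rise.

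Other named rises outside the gene lists were *skida1*, with a mean of 13.6 FPKM with TTNPB and 2.98 FPKM with AGN193109 and a difference of 1.88 ± 0.10 (SE, adjusted p = 5.85e-09), *mxi1*, a MAX partner that opposes MYC, with 60.6 FPKM with TTNPB and 17.5 FPKM with AGN193109 and 1.80 ± 0.12 (SE, adjusted p = 1.93e-07), and the receptor tyrosine kinase gene *kit*, with 4.02 FPKM with TTNPB and 0.822 FPKM with AGN193109 and 1.43 ± 0.11 (SE, adjusted p = 7.41e-07). With that AGN193109 mean, *kit* was tested only because of its level with TTNPB. Among falls, *sall1*, a spalt-family zinc finger gene, differed by -0.39 ± 0.06 (SE, adjusted p = 0.00169). The largest difference of any called record without a gene name was 3.11 ± 0.16 (SE, adjusted p = 5.85e-09), for hypothetical protein MGC131069, which was 5.45 to 14.9 FPKM with TTNPB and 0.0633 to 0.478 FPKM with AGN193109. MGC131069 too was tested only because of its level with TTNPB. A difference of 3.07 ± 1.79 in a cDNA clone did not pass (adjusted p = 0.562 in limma), and its levels ran from near 0 up to 1006 FPKM with TTNPB and 924.5 FPKM with AGN193109.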
